A study of Mus musculus with 16 samples.

Results

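The growth hormone axis of the liver was followed through 10 genes: the receptor Ghr, the signal transducer Stat5b, the feedback inhibitors Socs2 and Cish, the secreted products Igf1 and Igfals, the transcriptional repressors Bcl6 and Cux2, and the male-biased liver genes Hsd3b5 and Slco1a1. They were picked by symbol from 55291 genes counted in 16 libraries, and all 10 passed the filter on low counts. The libraries were made from whole mouse liver (14) and from isolated liver tumours (2), with 2 libraries in each of 8 groups, and the labels call the 2 libraries biological replicates. WT and Arid1a KO mice on vehicle (DMSO) were sampled at 9 and at 30 days after tamoxifen, and Arid1a/b DKO mice on vehicle at 9 days. Further WT and Arid1a KO mice were given what is labelled an NR1L3 agonist. Both agonist groups were taken as 30-day livers, although the titles of the WT agonist samples say 9 days. The tumours are labelled Arid1a KO/BcatEXON, with no time point or treatment. All livers are described with respect to a tamoxifen injection, WT included. The labels name hepatocytes as the cell type and the series design names whole tissue. The sample names carry the tag ALB in WT and the tag TC in both agonist groups, and do not spell out either. The sources used here do not state the Cre driver, the age and sex of the animals or the time of day of collection. ARID1A and ARID1B are alternative subunits of the BAF chromatin remodelling complex.

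Growth hormone from the pituitary binds its receptor on hepatocytes and activates the kinase JAK2, which phosphorylates STAT5B. STAT5B then enters the nucleus and switches on Igf1, which encodes the main circulating growth factor of the axis, and Igfals, whose product holds IGF1 in a stable complex in blood, as well as Socs2 and Cish, whose products dampen the receptor. Male mice release growth hormone in pulses and female mice almost continuously, and this pattern sets much of the sex difference of liver transcripts. BCL6 is a repressor found mainly in male liver, CUX2 a repressor found mainly in female liver, and Hsd3b5 (a steroid dehydrogenase) and Slco1a1 (an organic anion transporter) are typical male-biased targets.

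STAT5 proteins bind a TTC followed by a GAA, spaced by 3 or 4 bases. Promoter windows of 250 bases before the RefSeq gene start (GRCm38.p6) were available for 9 of the 10 genes, in 15 windows, and were searched on both strands for TTCNNNGAA and for the form with a spacer of 4 bases. Both read the same on either strand and neither contains the other. The windows of Ghr, Stat5b, Igf1, Cish, Cux2 and Slco1a1 held neither, while 3 genes, Igfals, Bcl6 and Hsd3b5, held a match in 5 windows. The form with 3 bases was found in 7.02% and that with 4 bases in 5.85% of all 32851 promoter windows of that length. The windows below are those of the male-biased pair, one with a match and one without, of Igfals, the called gene with a match closest to its start, and of Bcl6, which held 3 matches in 1 window. Capitals mark the matches, and each sequence runs 5′ to 3′ on the strand of its gene. The starts of Igfals and Bcl6 used here lie inside the GENCODE gene and that of Hsd3b5 upstream of it. The only windows of Igf1 and of Cish also lie inside the gene, with all 250 bases in annotated exons. No sequence upstream of the GENCODE gene was therefore searched for Igf1 or Cish. A match is a description of the letters and was not tested as a binding site.
Igfals, chr17:24878147-24878206, plus strand, 60 bases with the match starting 58 bases before the gene start: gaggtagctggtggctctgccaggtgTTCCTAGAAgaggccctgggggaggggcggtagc
Bcl6, chr16:23981284-23981533, minus strand, with matches starting 168, 122 and 88 bases before the start: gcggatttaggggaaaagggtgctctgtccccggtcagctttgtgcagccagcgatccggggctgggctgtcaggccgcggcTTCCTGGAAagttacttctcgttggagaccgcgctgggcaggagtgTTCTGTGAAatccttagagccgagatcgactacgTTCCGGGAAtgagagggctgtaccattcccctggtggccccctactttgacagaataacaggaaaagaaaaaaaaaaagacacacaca
Hsd3b5, chr3:98645535-98645784, minus strand, with a 4-base spacer match starting 203 bases before the start: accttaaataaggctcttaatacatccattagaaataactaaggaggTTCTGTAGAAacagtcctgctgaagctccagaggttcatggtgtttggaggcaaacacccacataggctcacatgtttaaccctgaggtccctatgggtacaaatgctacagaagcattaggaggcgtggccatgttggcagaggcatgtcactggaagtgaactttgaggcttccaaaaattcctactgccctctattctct
Slco1a1, chr6:141946963-141947212, minus strand, with no match: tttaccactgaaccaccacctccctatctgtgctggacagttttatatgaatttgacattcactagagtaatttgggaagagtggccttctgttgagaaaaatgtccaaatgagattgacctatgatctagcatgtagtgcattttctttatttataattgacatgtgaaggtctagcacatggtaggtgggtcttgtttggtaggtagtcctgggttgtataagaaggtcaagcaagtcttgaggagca

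Levels are given as CPM, the reads of a gene scaled to the size of the library after TMM normalisation over the 16 libraries. Replicate 1 was sequenced less deeply than replicate 2 in every group, to totals of 7569779 to 32026312 counted reads against 19999443 to 47768610, and a count of 3 was worth between 0.0481 and 0.363 CPM. Arid1a itself was not called different between livers labelled Arid1a KO and WT, at 9 days (87.5 and 90.1 CPM against 72.2 and 77.0 CPM, log2 0.25, edgeR adjusted p = 0.753) or at 30 days (95.3 and 76.5 CPM against 105 and 86.4 CPM, log2 −0.15, adjusted p = 0.94). The livers labelled Arid1a/b DKO had 90.6 and 103 CPM of Arid1a (log2 0.38, adjusted p = 0.15), and Arid1b fell in them to 24.5 and 25.7 CPM from 38.0 and 52.8 CPM in WT (log2 −0.85, adjusted p = 0.0439). The sources used here do not give the deleted exons, and counts over whole genes do not show a short deletion, so genotypes are as labelled throughout and each direction below is between libraries so labelled. All 14 livers carried Y-linked transcripts, with Ddx3y at 55.3 to 98.6 CPM and Xist at no more than 0.767 CPM. Tumour replicate 1 instead had Xist at 354 CPM and Ddx3y at 0.567 CPM, and tumour replicate 2 had both, Xist at 53.8 CPM and Ddx3y at 34.8 CPM. A difference of sex therefore moves with the tumour comparisons and cannot be told apart from them.

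Ghr (chr15:3317760-3583492, GRCm38, minus strand), the growth hormone receptor, was high in every liver on vehicle except Arid1a/b DKO. At 9 days WT had 763 and 571 CPM in replicates 1 and 2, Arid1a KO had 478 and 444 CPM, and Arid1a/b DKO had 88.9 and 111 CPM. At 30 days they were 766 and 810 CPM in WT, 745 and 481 CPM in Arid1a KO, 674 and 885 CPM in WT on agonist and 314 and 333 CPM in Arid1a KO on agonist, and the tumours had 152 and 163 CPM. The 4 highest group means, from 788 CPM in WT at 30 days to 613 CPM in Arid1a KO at 30 days, overlapped with their neighbours, and below them Arid1a KO at 9 days, Arid1a KO on agonist, the tumours and Arid1a/b DKO followed without overlap between neighbours. Ghr spanned 9.96-fold over the 16 libraries, while the median ratio between replicates of a group was 1.16.

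Stat5b (chr11:100780731-100850724, minus strand), which carries the receptor's signal to the nucleus, varied least of the 10 genes, 3.71-fold over the 16 libraries. At 9 days WT had 79.1 and 88.8 CPM, Arid1a KO 88.9 and 85.8 CPM, and Arid1a/b DKO 41.6 and 53.5 CPM. The 30-day livers had 131 and 95.6 CPM in WT, 154 and 74.2 CPM in Arid1a KO, 98.9 and 90.8 CPM in WT on agonist and 100 and 81.9 CPM in Arid1a KO on agonist, against 70.4 and 72.3 CPM in the tumours. Only Arid1a/b DKO and the tumours lay apart from their neighbours in the order of group means, both at the low end.

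Igf1 (chr10:87858265-87937042, plus strand), the circulating growth factor, was highest in WT at 9 days, at 991 and 823 CPM. Arid1a KO had 725 and 501 CPM and Arid1a/b DKO 250 and 220 CPM at that time. At 30 days Igf1 was at 770 and 651 CPM in WT, 595 and 558 CPM in Arid1a KO, 668 and 544 CPM in WT on agonist and 311 and 262 CPM in Arid1a KO on agonist, with 346 and 275 CPM in the tumours. Arid1a/b DKO, the tumours and Arid1a KO on agonist formed a low set that did not overlap with the other 5 groups. An antisense gene, Igf1os, overlaps Igf1, and since the strand setting of the counting is not given in the sources used here, reads of the pair cannot be told apart. The same holds for Cish, Bcl6, Cux2 and Hsd3b5, each of which overlaps a gene on the opposite strand.

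Igfals (chr17:24865997-24882010, plus strand), whose product is the acid-labile subunit of the IGF1 complex, had the same 3 groups at the low end. WT and Arid1a KO had 259 and 298 CPM and 268 and 235 CPM at 9 days, and 170 and 170 CPM and 171 and 177 CPM at 30 days. WT on agonist had 135 and 176 CPM. The low values were 57.9 and 106 CPM in Arid1a/b DKO, 57.9 and 68.0 CPM in Arid1a KO on agonist and 40.3 and 77.4 CPM in the tumours, and these 3 groups overlapped one another and none of the other 5.

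Socs2 (chr10:95385362-95417180, minus strand) and Cish (chr9:107296026-107302784, plus strand), the feedback inhibitors, differed widely between replicates of a group. The 9-day levels of Socs2 were 41.3 and 98.2 CPM in WT, 15.7 and 10.7 CPM in Arid1a KO and 15.4 and 9.56 CPM in Arid1a/b DKO, so that the WT livers lay above both other groups. At 30 days it had 43.1 and 7.36 CPM in WT, 87.4 and 24 CPM in Arid1a KO, 45.0 and 17.8 CPM in WT on agonist and 18.2 and 4.63 CPM in Arid1a KO on agonist, and the tumours had 40.8 and 38.9 CPM. For Cish the 9-day levels were 19.0 and 115 CPM in WT, 32.5 and 51.3 CPM in Arid1a KO, and 9.94 and 14.6 CPM in Arid1a/b DKO. No group of 9-day livers stood clear of both others for Cish except Arid1a/b DKO, at the low end. Its 30-day values were 102 and 3.86 CPM in WT, 72.7 and 25.4 CPM in Arid1a KO, 93.0 and 39.5 CPM in WT on agonist and 43.2 and 11.5 CPM in Arid1a KO on agonist, with 15.9 and 28.5 CPM in the tumours. In all 4 groups of 30-day livers replicate 1 was the higher for both genes. Their median ratio between replicates was 2.45 for Socs2 and 2.61 for Cish, against 1.19 for Igf1 and 1.16 for Igfals.

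Bcl6 (chr16:23965052-23988852, minus strand), the male-biased repressor, ran at 60.0 and 22.3 CPM in 9-day WT, 26.8 and 14.4 CPM in 9-day Arid1a KO, and 9.56 and 16.4 CPM in Arid1a/b DKO. At 30 days it had 28.1 and 145 CPM in WT, 30.3 and 29.8 CPM in Arid1a KO, 29.9 and 14.6 CPM in WT on agonist and 14.1 and 17.7 CPM in Arid1a KO on agonist, and in the tumours 29.6 and 19.0 CPM. WT replicate 2 at 30 days was the highest library, and the same library had the lowest Cish of all 16. Cux2 (chr5:121856366-122050102, minus strand), the female-biased repressor, split the livers by time. The 9-day livers had 19.5 and 214 CPM (WT), 67.8 and 19.3 CPM (Arid1a KO), and 55.5 and 21.6 CPM (Arid1a/b DKO), and the tumours 8.51 and 92.9 CPM. The 8 libraries of 30-day livers ranged from 0.454 CPM in WT on vehicle to 1.62 CPM in Arid1a KO on agonist. No 30-day library reached a 9-day or tumour library.

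Hsd3b5 (chr3:98618634-98630252, minus strand), the male-biased steroid dehydrogenase, had the widest range of the 10 genes. At 9 days it was low in every group, with 8.45 and 1.05 CPM for WT, with 5.11 and 10.5 CPM for Arid1a KO, and for Arid1a/b DKO with 0.0239 and 0.0641 CPM, which are 1 and 4 counts. It was high at 30 days in WT, at 300 and 266 CPM, in Arid1a KO, at 384 and 220 CPM, and in WT on agonist, at 404 and 58.5 CPM, but not in Arid1a KO on agonist, at 2.39 and 0.364 CPM. The tumours had 0.794 and 0.606 CPM, which are 7 and 12 counts. Thus 6 of the 30-day libraries lay at 58.5 CPM or above, and the remaining 10 libraries at 10.5 CPM or below.

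Slco1a1 (chr6:141907282-141946962, minus strand), the male-biased transporter, was graded over the 3 groups at 9 days. WT had 372 and 181 CPM, Arid1a KO 109 and 66.9 CPM and Arid1a/b DKO 6.50 and 15.2 CPM at 9 days, with no overlap between the 3 groups. At 30 days the values were 643 and 711 CPM in WT, 856 and 175 CPM in Arid1a KO, 646 and 310 CPM in WT on agonist and 17.1 and 4.97 CPM in Arid1a KO on agonist. The tumours had 5.10 and 5.31 CPM. Libraries of Arid1a/b DKO, of Arid1a KO on agonist and of the tumours thus lay at 17.1 CPM or below, and all others at 66.9 CPM or above. Per kilobase of exon, Hsd3b5 and Slco1a1 led the 10 genes in WT at 30 days, with group mean levels of 183 and 128 CPM per kb, followed by Ghr at 87.1, Igf1 at 71.7 and Igfals at 53.6 CPM per kb, and Cux2 was lowest at 0.0463 CPM per kb. In WT at 9 days Igf1 led, at 91.6 CPM per kb, and Hsd3b5 was lowest, at 3.07 CPM per kb.

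**Figure D1:**
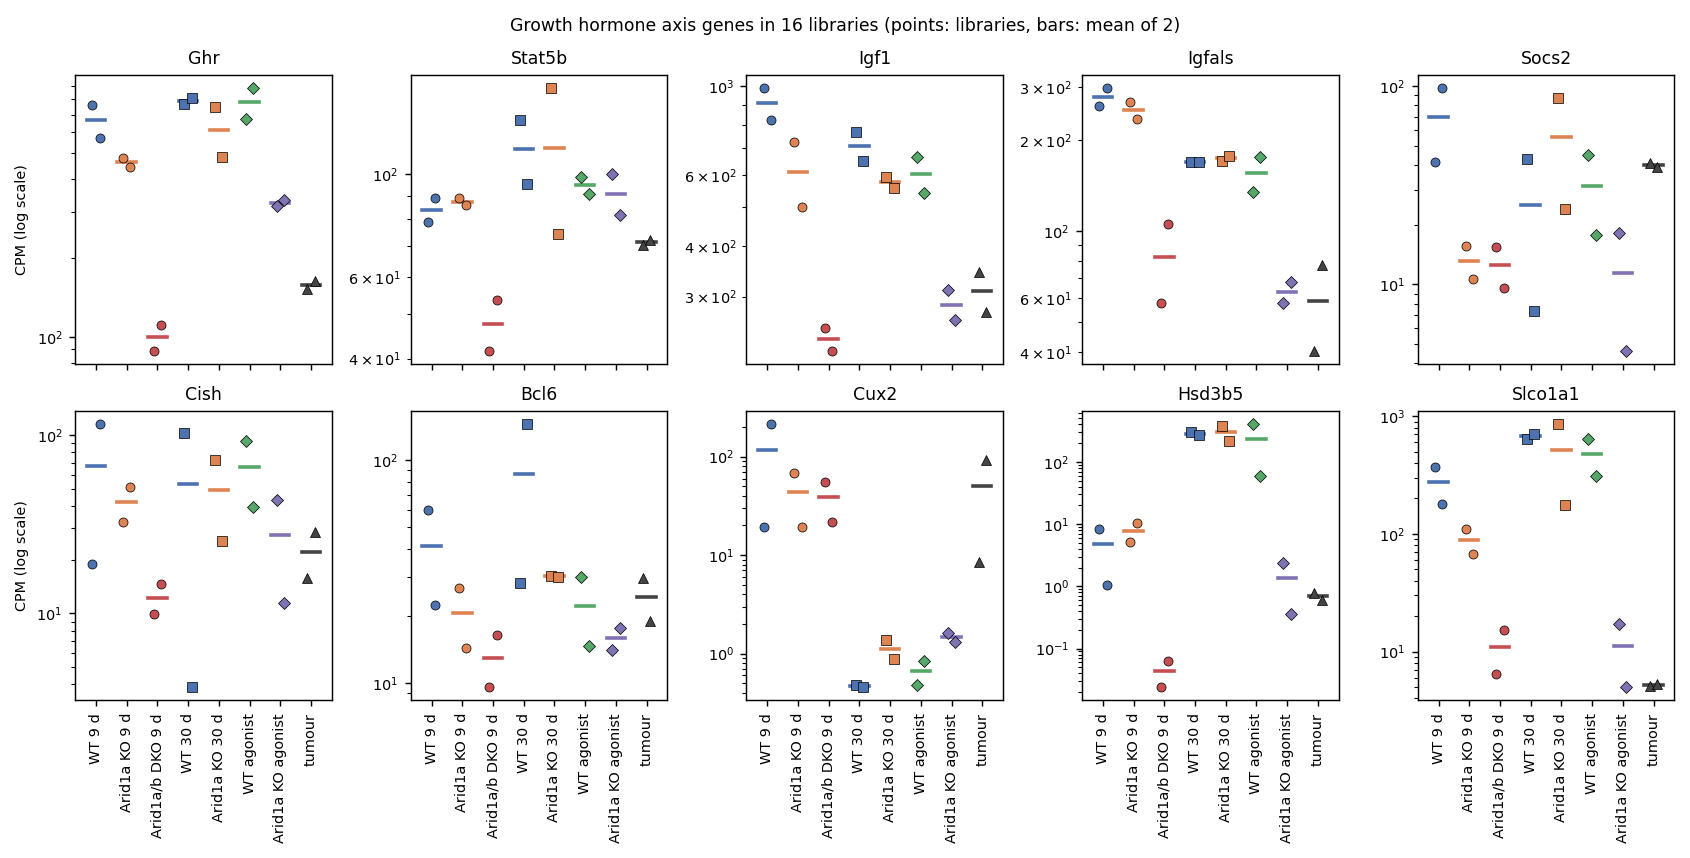
Levels of the 10 genes in the 16 libraries, in CPM on log axes, with 1 point per library and a bar at the mean of the 2 libraries of a group; d stands for days after tamoxifen, and the 2 agonist groups are 30-day livers. Ghr, Igf1 and Igfals are low in Arid1a/b DKO, in Arid1a KO on agonist and in the tumours, Cux2 is low in the 8 libraries of 30-day livers, and Hsd3b5 is at 58.5 CPM or above in 6 of them.

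Loss of Arid1a alone was first compared with WT on vehicle. At 9 days none of the 10 genes was called by edgeR's quasi-likelihood test at an adjusted p under 0.05, and DESeq2 called 0 as well. Over all 17831 genes tested, edgeR called 0.269% higher and 0.297% lower. The smallest adjusted p among the 10 was that of Socs2, with a log2 fold change of −2.41 (SE 0.93, adjusted p = 0.365). Igf1 had −0.57 (SE 0.23, adjusted p = 0.392) and Slco1a1 −1.66 (SE 0.77, adjusted p = 0.486). These 3 genes and Ghr, at −0.53 (SE 0.25, adjusted p = 0.495), were the 4 whose Arid1a KO libraries did not overlap with WT, a separation that 44.7% of all genes tested also showed. Socs2 and Igf1 had an unadjusted p under 0.05, as did 10.6% of all genes, and 8 of the 10 fold changes were negative, against 49.6% of all genes tested.

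At 30 days edgeR again called none of the 10 between Arid1a KO and WT on vehicle, nor did DESeq2, against 0.286% of genes called higher and 0.23% called lower. Of the 10 fold changes 5 were negative. Bcl6, the only one of the 10 with an unadjusted p under 0.05 (9.43% of all genes), had a log2 fold change of −1.53 (SE 0.69, adjusted p = 0.528), with 28.1 CPM in one WT library and 145 CPM in the other, and was at 0.11 (adjusted p = 1) without the latter. Hsd3b5 and Slco1a1 had log2 fold changes of 0.09 (SE 0.93) and −0.39 (SE 0.75). The genotype difference was not found to depend on time for any of the 10 genes, with 0% of genes called for that interaction, 0 members called by DESeq2 and 1 member, Socs2, at an unadjusted p under 0.05, against 1.81% of all genes (log2 3.56, SE 1.29, edgeR adjusted p = 1). With 2 libraries a group a p that misses the threshold does not show that the levels were alike.

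Loss of both Arid1a and Arid1b went with lower levels of the receptor, of both secreted products and of both male-biased genes. Against WT at 9 days Ghr fell 6.65-fold (log2 −2.73, SE 0.27, edgeR adjusted p = 1.09e-04), Igf1 fell 3.84-fold (log2 −1.94, SE 0.23, adjusted p = 3.29e-04) and Igfals fell 3.39-fold (log2 −1.76, SE 0.26, adjusted p = 0.00102). Slco1a1 fell 25.4-fold (log2 −4.67, SE 0.87, adjusted p = 0.00366). Hsd3b5 fell by 6.39 on the log2 scale (SE 1.56, adjusted p = 0.0134), and its counts of 138 in WT and 5 in Arid1a/b DKO gave a ratio of 65.6 with a 95% interval of 27.4 to 205, which covers counting error only. These 5 of 10 genes compare with 13.8% of all 17831 genes called lower, and none of the 10 was called higher against 12.6% of all genes. Fold changes of all 10 genes were negative, with a median of −2.20, where the median of all genes tested was 0.01. The libraries of the 2 groups did not overlap for 9 of the 10 genes, Cux2 being the exception, against 66.4% of all genes.

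The other 5 genes were not called in Arid1a/b DKO. Stat5b had a log2 fold change of −0.82 (SE 0.30, edgeR adjusted p = 0.0651) and Socs2 −2.48 (SE 0.92, adjusted p = 0.0694). Bcl6 had −1.65 (SE 0.69, adjusted p = 0.101), Cish −2.45 (SE 1.24, adjusted p = 0.165) and Cux2 −1.60 (SE 0.86, adjusted p = 0.195). Without WT replicate 2 the log2 fold change of Cux2 turned positive, to 0.99, and that of Cish was −0.62. Hsd3b5 was no longer called without either Arid1a/b DKO library or without WT replicate 1, with a highest adjusted p of 0.11, while Ghr, Igf1, Igfals and Slco1a1 were called under every alternative run for this comparison.

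Arid1a/b DKO was also lower than Arid1a KO at 9 days in the same 5 genes. Ghr fell 4.6-fold (log2 −2.20, SE 0.26, edgeR adjusted p = 3.36e-04), Igf1 2.6-fold (log2 −1.38, SE 0.23, adjusted p = 0.00237) and Igfals 3.07-fold (log2 −1.62, SE 0.26, adjusted p = 0.00184). For Slco1a1 the fall was 8.05-fold (log2 −3.01, SE 0.81, adjusted p = 0.0236), and for Hsd3b5 it was 7.22 on the log2 scale (SE 1.53, adjusted p = 0.00802), with counts of 330 and 5. Over all genes tested 12.1% were called lower and 9.92% higher. The 2 comparisons share the Arid1a/b DKO libraries. Without Arid1a/b DKO replicate 1 the count was 3, as Hsd3b5 and Slco1a1 were lost. Hsd3b5 was also lost without replicate 2 of that group, and Slco1a1 without either Arid1a KO library, with a highest adjusted p of 0.14.

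Markers of some other cells moved with these falls. In Arid1a/b DKO against WT 6 of 9 stellate cell and fibroblast markers rose, with summed levels of 1143 to 2381 CPM against 273 to 358 CPM, and 4 of 6 proliferation markers rose, from 23.3 to 58.8 CPM in sum to 92.7 to 241 CPM. Of 8 macrophage markers 1 rose, Cd68, with a sum of 1571 to 2674 CPM against 677 to 1319 CPM. That count is near the 12.6% of all genes called higher, where 13.8% were called lower. Of endothelial markers 2 of 8 rose, and of cholangiocyte markers 3 of 8 rose and 1 fell. Of 11 hepatocyte markers 4 fell, Serpina1a, Ttr, Apoa1 and Apoa2, and all 11 fold changes were negative, with a median of −0.81. Their summed level was 25469 to 25919 CPM in Arid1a/b DKO and 27704 to 50880 CPM in WT, and no hepatocyte marker was at 0 in any library. Of 12 acute phase genes, a list outside the growth hormone axis, 6 fell and 0 rose. Fold changes were negative in 10 of these 12, with a median of −1.54. In bulk tissue fewer hepatocytes and less RNA per hepatocyte cannot be told apart, and the part of these markers in the falls of the 5 genes was not tested.

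The agonist was compared with vehicle at 30 days within each genotype. In WT none of the 10 genes was called by edgeR or by DESeq2, against 0.028% of genes called by edgeR in either direction. Ghr and Igf1 had log2 fold changes of −0.02 (SE 0.25) and −0.23 (SE 0.23), and Igfals −0.13 (SE 0.25). Bcl6 alone of the 10 had an unadjusted p under 0.05 (3.66% of all genes), at −1.98 (SE 0.70, edgeR adjusted p = 1), and at −0.35 without the same WT vehicle library. Slco1a1 was at −0.50 (SE 0.75) and Hsd3b5 at −0.29 (SE 0.93), the latter with 404 CPM in one agonist liver and 58.5 CPM in the other.

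In Arid1a KO the agonist went with a fall of Igfals and of both male-biased genes. Igfals fell 2.76-fold (log2 −1.46, SE 0.26, edgeR adjusted p = 0.0266), Slco1a1 fell 47.3-fold (log2 −5.56, SE 0.91, adjusted p = 0.0196) and Hsd3b5 fell 247-fold (log2 −7.95, SE 1.32, adjusted p = 0.0199). These are 3 of 10 genes, where 0.32% of all genes were called lower and 0.55% higher. Igf1 and Ghr missed the threshold, at −1.01 (SE 0.23, adjusted p = 0.0783) and −0.92 (SE 0.25, adjusted p = 0.142), with no overlap between the agonist and vehicle libraries of either gene, as in 39.5% of all genes. DESeq2 called both (adjusted p = 0.00237 and 0.0185), and with a replicate block edgeR called Igf1 (adjusted p = 0.024) and not Ghr (adjusted p = 0.135). Igfals was also lost in a fit of all 16 libraries and without Arid1a KO vehicle replicate 2. All 3 calls were lost without Arid1a KO vehicle replicate 1 and without either agonist library, and in a fit of only the libraries compared, although the fold changes kept their sign in all 10 alternatives. Marker lists moved with this comparison in sign, although only 1 erythroid marker was called. All 11 hepatocyte markers had negative fold changes (median −0.56, sums of 26900 to 29536 CPM on agonist and 31445 to 44381 CPM on vehicle), all 6 proliferation markers positive ones (median 2.21, sums of 67.5 to 106 CPM and 13.4 to 27.1 CPM) and all 9 stellate cell and fibroblast markers positive ones (median 0.51, sums of 507 to 942 CPM and 318 to 640 CPM). Their part in the falls was not tested.

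Under the agonist Arid1a KO lay below WT in the 5 genes that fell in Arid1a/b DKO. Ghr was 2.4-fold lower (log2 −1.27, SE 0.25, edgeR adjusted p = 0.0198), Igf1 2.11-fold lower (log2 −1.08, SE 0.23, adjusted p = 0.0249) and Igfals 2.46-fold lower (log2 −1.30, SE 0.26, adjusted p = 0.0191). Slco1a1 was 43.9-fold lower (log2 −5.46, SE 0.91, adjusted p = 0.01) and Hsd3b5 189-fold lower (log2 −7.56, SE 1.30, adjusted p = 0.0111). Of all genes tested 1.91% were called lower and 3.05% higher. The count of 5 became 1 without Arid1a KO agonist replicate 1, 0 without replicate 2 of that group and 2 without WT agonist replicate 2. Proliferation markers moved with this comparison, 5 of 6 being higher in Arid1a KO, with sums of 67.5 to 106 CPM against 7.13 to 8.92 CPM, as did 2 of 9 stellate cell and fibroblast markers, with sums of 507 to 942 CPM against 274 to 283 CPM. Of 8 cholangiocyte markers 1 was higher, Spp1 (log2 2.85), and all 8 fold changes were positive. None of 11 hepatocyte markers was called, while 9 of 11 fold changes were negative, with a median of −0.60, and the sums did not overlap, at 26900 to 29536 CPM in Arid1a KO and 31237 to 41518 CPM in WT. The part of these markers in the differences was not tested.

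Whether the agonist acted differently in the 2 genotypes was tested as an interaction, for which edgeR called 0.00561% of genes and none of the 10. The differences between the 2 agonist effects were −7.66 (SE 1.55, edgeR adjusted p = 0.233) for Hsd3b5, −5.06 (SE 1.12, adjusted p = 0.292) for Slco1a1 and −1.33 (SE 0.36, adjusted p = 0.447) for Igfals, on the log2 scale. Ghr and Igf1 also had an unadjusted p under 0.05, which makes 5 of the 10 genes, against 5.58% of all genes. DESeq2 called 2 of them, Hsd3b5 and Slco1a1. The lower levels in Arid1a KO on agonist are therefore not shown by edgeR to be a different response from that of WT.

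**Figure D2:**
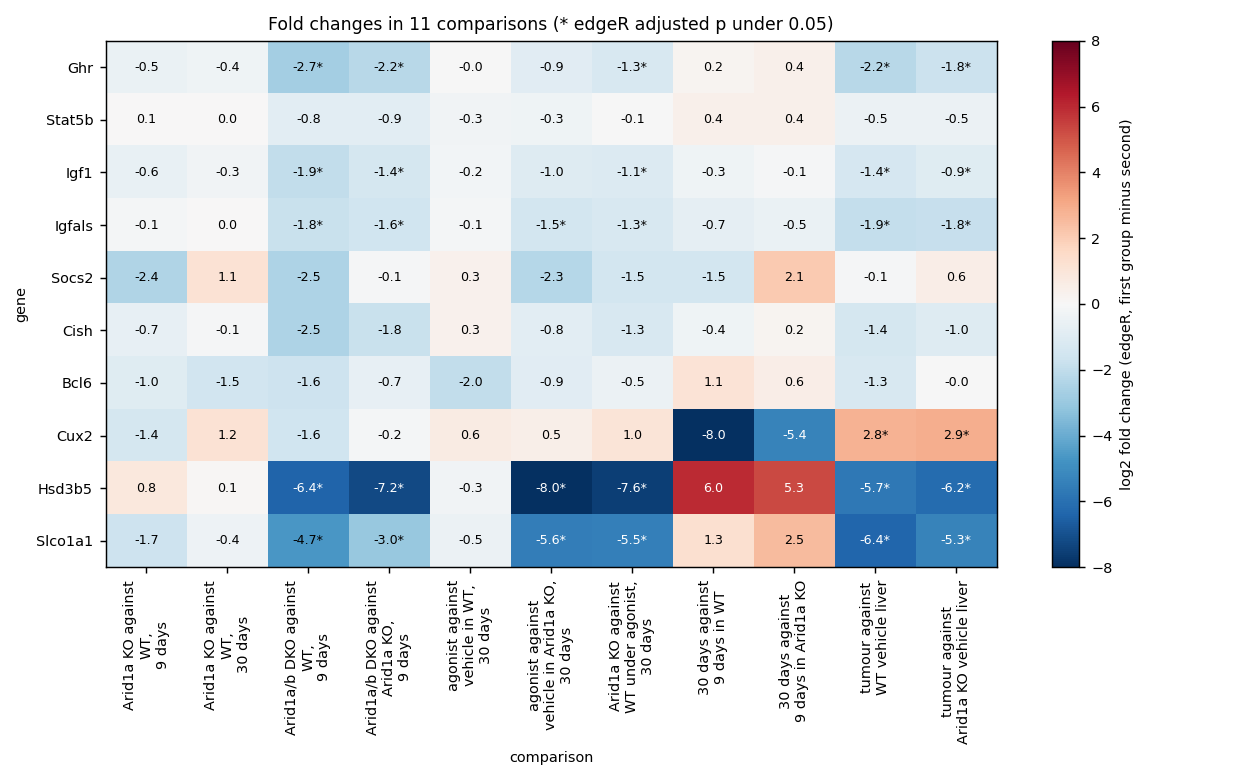
Log2 fold changes of the 10 genes from edgeR in 11 comparisons, first group minus second, as a colour scale from −8 to 8 with the values printed, and a star where the adjusted p was under 0.05. The starred cells of Ghr, Igf1, Igfals, Hsd3b5 and Slco1a1 recur in Arid1a/b DKO, in Arid1a KO against WT under agonist and in the tumours, and neither column of Arid1a KO against WT on vehicle has a star.

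The livers on vehicle of WT and of Arid1a KO differed most between 9 and 30 days in Cux2 and Hsd3b5 among the 10 genes. In WT Cux2 was at 19.5 and 214 CPM at 9 days and at 0.48 and 0.454 CPM at 30 days, a log2 difference of −7.96 (SE 1.26, edgeR adjusted p = 0.0873), and Hsd3b5 was at 8.45 and 1.05 CPM and then at 300 and 266 CPM, a log2 difference of 5.99 (SE 1.18, adjusted p = 0.143). The libraries of the 2 times did not overlap for 7 of the 10 genes, Ghr and Stat5b included, against 39.4% of all genes, but edgeR called none of the 10, against 0.0224% of all genes, with 3 members at an unadjusted p under 0.05 (9.09% of all genes). DESeq2 called both Cux2 and Hsd3b5, and edgeR called 1 of the 10, Cux2, when WT replicate 1 at 9 days was left out. In Arid1a KO the same genes had −5.36 (SE 1.11, adjusted p = 0.304) and 5.26 (SE 1.13, adjusted p = 0.327), with Slco1a1 at 2.55 (SE 0.79, adjusted p = 0.586). There edgeR called 0.0112% of genes and none of the 10, with 4 at an unadjusted p under 0.05 (6.9% of all genes), and DESeq2 called 3, Cux2, Hsd3b5 and Slco1a1. Ghr and Stat5b differed between the times in WT by 0.24 (SE 0.25) and 0.43 (SE 0.30), and Igfals by −0.71 (SE 0.25, adjusted p = 0.416).

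Other sex-biased liver genes were followed as 2 lists. Among 24 female-biased genes 3 fell in WT from 9 to 30 days, all of them cytochrome P450 genes: Cyp2c69 (log2 −6.44, SE 0.61, edgeR adjusted p = 0.0089), Cyp2c40 (log2 −5.31, SE 0.61, adjusted p = 0.0204) and Cyp3a44 (log2 −8.06, SE 1.01, adjusted p = 0.0341). Their fold changes were negative in 23 of 24, with a median of −4.75 against −0.01 for all genes tested, of which 0.0224% were called in either direction. The summed level was 2010 to 2580 CPM in WT at 9 days and 182 to 221 CPM at 30 days. Among 16 male-biased genes none was called in that comparison, while 15 of 16 fold changes were positive, with a median of 1.40 and sums of 4783 to 6639 CPM at 9 days and 11161 to 15839 CPM at 30 days. The P450 genes of both lists belong to families of similar sequence, among which reads may be divided, so single values are uncertain. Y-linked transcripts were present at both times, as given above.

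Genes of both lists fell in Arid1a/b DKO against WT at 9 days. Of 16 male-biased genes 10 fell, among them Cyp2u1 (log2 −3.90) and Cyp7b1 (log2 −4.15), a hydroxylase of oxysterols, with a list median of −4.00, and 12 of 24 female-biased genes fell, among them Cyp2c69 (log2 −10.91), with a median of −3.18. Over all genes 13.8% were called lower in that comparison. In Arid1a KO the agonist went with a fall of 2 of 16 male-biased genes, Cyp2u1 (log2 −3.25, SE 0.39, edgeR adjusted p = 0.00655) and Cyp7b1 (log2 −2.75, SE 0.48, adjusted p = 0.0257), and a rise of 3 of 24 female-biased genes, Slc22a27, Slc22a29 and Hao2. Of all genes 0.32% were called lower and 0.55% higher there. All 16 male-biased fold changes were negative there (median −2.12) and 23 of 24 female-biased ones positive (median 2.26). In WT the agonist gave no call in either list, with 18 of 24 female-biased fold changes positive (median 2.30) and 7 of 16 male-biased ones negative (median 0.08). Under vehicle Arid1a KO against WT gave 1 male-biased gene lower, Ugt2b38, and 1 female-biased gene higher and 2 lower at 9 days, and 0 and 1 called at 30 days, the latter Hao2. The shares of all genes called were 0.297% lower and 0.269% higher at 9 days, and 0.23% and 0.286% at 30 days.

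**Figure D3:**
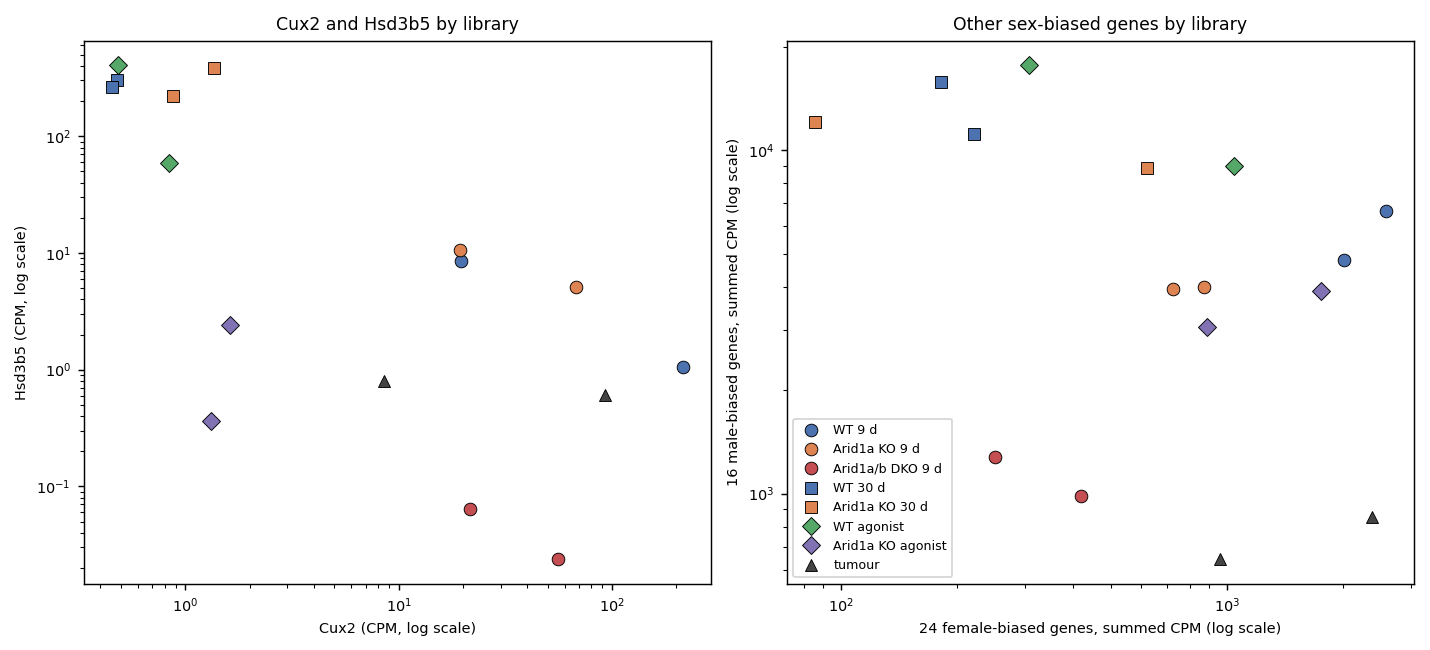
Left, Hsd3b5 against Cux2, and right, the summed level of 16 male-biased against that of 24 female-biased genes, each in CPM on log axes with 1 point per library. The 6 libraries of WT and Arid1a KO at 30 days on vehicle and of WT on agonist sit at the upper left of the first panel, and the 2 libraries of Arid1a KO on agonist have low levels of both Cux2, at 1.32 to 1.62 CPM, and Hsd3b5, at 0.364 to 2.39 CPM.

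The tumours were compared with the 4 vehicle livers of WT, and separately with the 4 of Arid1a KO, in a fit of all 16 libraries. Against WT 5 of the 10 genes were lower, where 16.1% of 18193 genes were called lower. Ghr fell 4.6-fold (log2 −2.20, SE 0.24, edgeR adjusted p = 5.81e-05), Igf1 2.59-fold (log2 −1.37, SE 0.22, adjusted p = 6.46e-04) and Igfals 3.68-fold (log2 −1.88, SE 0.30, adjusted p = 5.94e-04). Slco1a1 fell 82.9-fold (log2 −6.37, SE 0.89, adjusted p = 2.56e-04) and Hsd3b5 52.1-fold (log2 −5.70, SE 1.20, adjusted p = 0.00338). Cux2 was called higher (log2 2.79, SE 0.97, adjusted p = 0.04), where 20.5% of genes were called higher. Its direction depended on the time of the controls, being −1.19 (adjusted p = 0.411) against the 9-day livers alone and 6.77 (adjusted p = 0.00506) against the 30-day livers alone, and without tumour replicate 2 it was 0.14 (adjusted p = 0.934). Hsd3b5 was not called against the 9-day livers alone, at an adjusted p of 0.124.

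Against Arid1a KO vehicle livers the same 6 genes were called, where 15.2% of genes were lower and 18% higher. The log2 fold changes were −1.75 (SE 0.24, edgeR adjusted p = 2.50e-04) for Ghr, −0.94 (SE 0.22, adjusted p = 0.00635) for Igf1 and −1.83 (SE 0.30, adjusted p = 8.39e-04) for Igfals. Slco1a1 had −5.35 (SE 0.84, adjusted p = 6.84e-04) and Hsd3b5 −6.16 (SE 1.21, adjusted p = 0.00264). Cux2 was at 2.92 (SE 0.92, adjusted p = 0.029), and at 0.24 (adjusted p = 0.888) against the 9-day livers alone and 0.27 (adjusted p = 0.866) without tumour replicate 2. Both comparisons share the tumour libraries. Socs2, with 40.8 and 38.9 CPM in the tumours, was within the range of the vehicle livers, at log2 fold changes of −0.07 (SE 0.73) against WT and 0.56 (SE 0.72) against Arid1a KO. Of the male-biased list 12 of 16 genes were lower than in WT livers, and of the female-biased list 8 of 24 were higher and 1 lower. Over all genes 16.1% were called lower and 20.5% higher against WT. Of 11 hepatocyte markers 2 were lower and 1 higher, with sums of 29979 to 35082 CPM in the tumours. Of the other marker lists against WT, 6 of 6 proliferation, 4 of 5 erythroid, 3 of 8 cholangiocyte and 1 of 5 neutrophil markers were higher, and 3 of 8 lymphocyte markers lower. Among 8 endothelial and 8 macrophage markers 5 of each were lower and 1 of each higher, and of 9 stellate cell and fibroblast markers 2 were higher and 1 lower. The sex transcripts given above differ between the 2 tumours and the livers. The part of these markers and transcripts in the differences was not tested.

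The other genes of the receptor pathway were called at a share near that of all genes in Arid1a/b DKO against WT (12.6% higher and 13.8% lower). Of 16 further genes of growth hormone receptor signalling, 1 rose and 2 fell in Arid1a/b DKO against WT: Irs2, an insulin receptor substrate, rose (log2 2.78, SE 0.43, edgeR adjusted p = 0.00123), Prlr, the prolactin receptor, fell (log2 −5.75, SE 0.74, adjusted p = 4.93e-04), and Stat5a, the close relative of Stat5b, fell (log2 −1.63, SE 0.50, adjusted p = 0.0344). Jak2, the kinase next to the receptor, was at 0.39 (SE 0.18, adjusted p = 0.141). The tumours against WT gave 2 higher, Ptpn2 and Irs2, and none lower, against 20.5% of all genes higher and 16.1% lower.

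Of 11 further genes of the IGF system 4 rose and 1 fell in Arid1a/b DKO against WT, where 12.6% of all genes were called higher and 13.8% lower. Igfbp6 (log2 4.60, SE 0.53, edgeR adjusted p = 2.72e-04), Igfbp1 (log2 3.12, SE 0.93, adjusted p = 0.0318) and Igfbp7 (log2 1.18, SE 0.35, adjusted p = 0.0321) rose, and Igfbp4 fell (log2 −3.99, SE 0.54, adjusted p = 6.05e-04). These 4 named genes encode proteins that bind IGF peptides or are related to those that do. The remaining gene that rose is not named, as at most 4 called genes were named per list. In the tumours 4 of the 11 genes were higher and 2 lower than in WT livers, against 20.5% of all genes higher and 16.1% lower. Igf2, the fetal growth factor, had 52.6 and 79.3 CPM in the tumours and at most 0.602 CPM in any liver (log2 9.60 against WT, SE 0.53, adjusted p = 1.20e-06), while Igf1 fell. Igfbp1 had 2541 and 818 CPM in the tumours (log2 5.27, SE 0.79, adjusted p = 4.22e-04).

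Relatives of the members were counted to see whether whole families moved. Of 15 paralogs 11 were tested in the livers, and 4 fell in Arid1a/b DKO against WT: Hsd3b2 (log2 −4.33), Hsd3b3 (log2 −2.31), the transporter gene Slco1b2 (log2 −5.51) and Stat5a. None rose, and of all genes 13.8% were called lower and 12.6% higher. The Slco1b2 levels were 49.9 and 6.96 CPM in Arid1a/b DKO and 1502 and 1096 CPM in WT. Hsd3b2 was also the only paralog called for the agonist in Arid1a KO (log2 −3.27, SE 0.46, edgeR adjusted p = 0.0112). Unlike Hsd3b5, Hsd3b1 was higher in Arid1a KO than in WT under the agonist (log2 10.16, SE 1.78, edgeR adjusted p = 0.0146). Its levels there were 5.69 and 6.32 CPM against 0 and 0 CPM. Hsd3b2 and Cux1 were lower in that comparison. In the tumours against WT Hsd3b1 (log2 9.15) and Slco1a6 were higher, and Cux1 and Hsd3b2 lower. At 9 days Cux1 was lower in Arid1a KO than in WT (log2 −0.89, SE 0.16, edgeR adjusted p = 0.0419). The Hsd3b genes are close copies of one another, so their values and that of Hsd3b5 are uncertain to the extent that the counting divided reads among them.

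Within groups, the 30-day livers differed between replicates in the feedback genes and in the circadian clock together. Socs2 was higher in replicate 1 by 5.85-fold in WT, 3.65-fold in Arid1a KO, 2.53-fold in WT on agonist and 3.93-fold in Arid1a KO on agonist, and Cish by 26.5-fold, 2.86-fold, 2.35-fold and 3.76-fold. The clock gene Arntl was higher in replicate 1 as well, by 14.4-fold, 38.5-fold, 12.8-fold and 11.6-fold in the same order. Dbp, an output of the clock, was lower in replicate 1, at 61.7 against 397 CPM in WT, 6.17 against 327 CPM in Arid1a KO, 108 against 356 CPM in WT on agonist and 5.90 against 207 CPM in Arid1a KO on agonist. At 9 days Dbp was also lower in replicate 1, at 59.2 against 187 CPM in WT and 95.5 against 236 CPM in Arid1a KO, and Arntl of the 2 replicates differed by 3.72-fold and by 1.03-fold. In 9-day WT, however, Cish and Socs2 were lower in replicate 1 as well, at 19.0 against 115 CPM and 41.3 against 98.2 CPM, the opposite of the relation to Dbp in the 30-day livers. Ghr, Igf1 and Igfals differed by no more than 1.55-fold between replicates of any 30-day group. Hsd3b5 was higher in replicate 1 in every 30-day group, by 1.13-fold in WT, 1.74-fold in Arid1a KO, 6.91-fold in WT on agonist and 6.56-fold in Arid1a KO on agonist. Slco1a1 was higher in replicate 1 by 4.9-fold in Arid1a KO, 2.08-fold in WT on agonist and 3.44-fold in Arid1a KO on agonist, and lower by 1.11-fold in WT. The part of the clock difference in the spread of Socs2, Cish, Hsd3b5 and Slco1a1 was not tested.

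**Figure D4:**
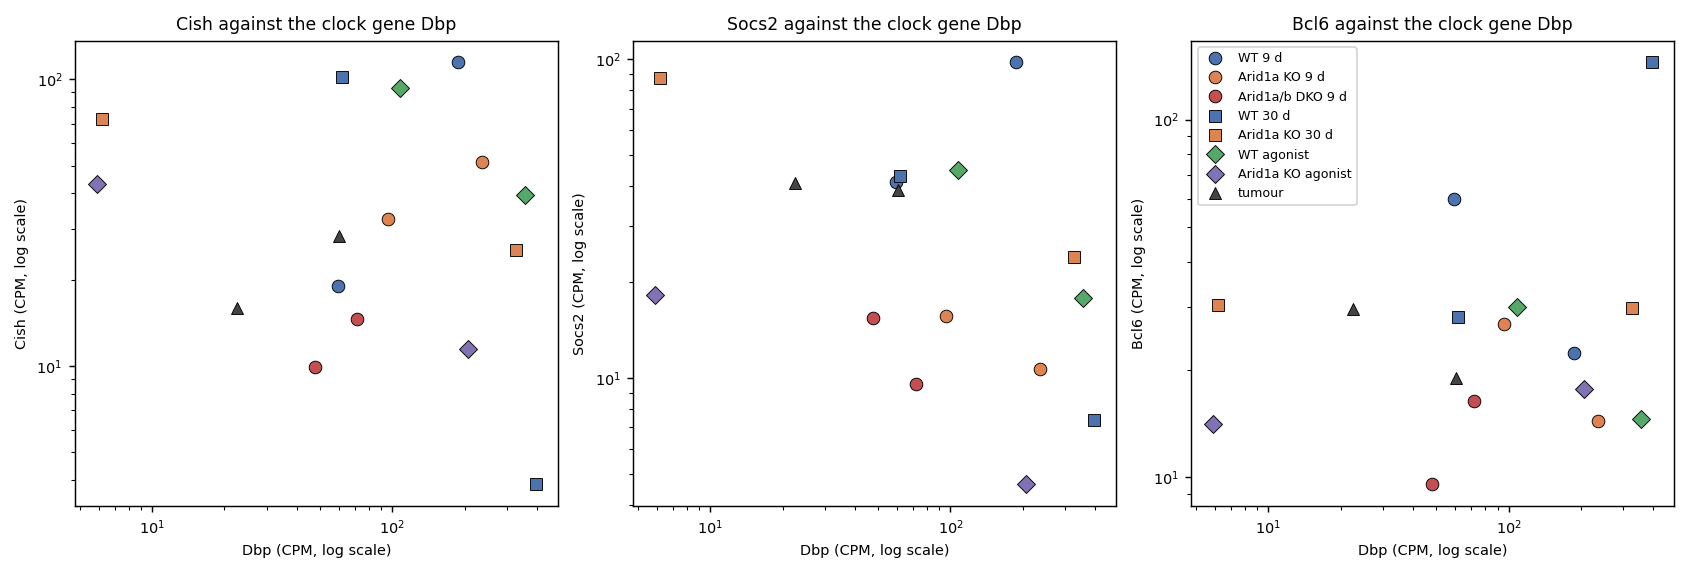
Cish, Socs2 and Bcl6 against the clock output gene Dbp, in CPM on log axes with 1 point per library. Among the 30-day livers the replicates with Dbp at 108 CPM or below have the higher Cish and Socs2 of their group. The WT library with the highest Dbp, 397 CPM, has the highest Bcl6, 145 CPM. In WT on agonist the 30-day replicate with the higher Dbp has the lower Bcl6. In Arid1a KO on vehicle at 30 days Bcl6 is nearly the same in both replicates, at 30.3 and 29.8 CPM. In the other 30-day groups the replicate with the higher Dbp has the higher Bcl6. Over the 16 libraries Pearson's r of Bcl6 with Dbp is 0.19.

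Across the 16 libraries, described with Pearson's r of log2 CPM and without a test, since libraries of a group share their condition, Ghr followed Slco1a1 (r = 0.89), Igf1 (r = 0.86) and Hsd3b5 (r = 0.83). Cux2 ran opposite to Hsd3b5 (r = −0.72), and Socs2 and Cish ran together (r = 0.68). Of 11821 genes compared, those most alike were Fbxo3 for Ghr (r = 0.978), C4a for Igf1 (r = 0.953), S1pr5 for Igfals (r = 0.95) and Arid1b for Stat5b (r = 0.949). For the feedback genes they were Ltb4r2 for Socs2 (r = 0.904) and Onecut1 for Cish (r = 0.783), and for the repressors Arsa for Bcl6 (r = 0.75) and Acot3, a peroxisomal thioesterase gene, for Cux2 (r = 0.899). Acot3 is in the female-biased list. The male-biased pair had genes of the male-biased list nearest, Elovl3, a fatty acid elongase gene, for Hsd3b5 (r = 0.933) and Cyp2u1 for Slco1a1 (r = 0.965). The next were Cyp2j5 and Slc25a42 for Ghr, Gpc4 and Lama3 for Igf1, Ugt2a3 and Itih1 for Igfals, Usf3 and Zhx3 for Stat5b, Arrb2 and Isyna1 for Cux2, Uox and Vgll4 for Hsd3b5, and Scnn1a and Sult2a8 for Slco1a1, with r between 0.871 and 0.976. For Socs2, Cish and Bcl6 they were Ikzf4 and Jrkl, Phlda1 and Amn1, and Acaa2 and Bbs10, with r between 0.731 and 0.756. Arid1b is one of the 2 genes targeted in Arid1a/b DKO, in which both it and Stat5b had their lowest levels.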

How the data were processed

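Polyadenylated RNA of liver and tumour tissue was sequenced as TruSeq libraries, per the labels' protocols. The submitters' processing notes name fastp, STAR 2.7.3, featureCounts and GRCm38.p6 (mm10). The sources used here give neither the annotation release nor the strand setting. The authors deposited raw counts, whole reads for each gene in each library. The deposited signal values equal these counts times 1 factor per library to within 0.00549%, and were used only for that check. Groups follow the labels. The members and gene lists were chosen with earlier results of these data known.

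Liver comparisons came from 1 fit of 14 libraries (17831 genes, 7 residual degrees of freedom), made with edgeR 4.0.16 under R 4.3.3: low counts were removed by filterByExpr, libraries scaled by TMM, and the quasi-likelihood F test used. Tumour comparisons used all 16 libraries (18193 genes, 8 degrees of freedom). P-values were adjusted over all genes of a comparison by Benjamini-Hochberg, 13 comparisons in all. SE is the absolute log2 fold change over the square root of F. The fit was tested on simulated data. Named were the 10 members, up to 4 called genes with the smallest p per list and comparison, and the 3 most alike genes of each member (mean of 2 CPM or more). Other genes named (Arid1a, Arid1b, Jak2, Dbp, Arntl, and the levels of Xist and Ddx3y) were chosen after their values were seen. Gene positions are from GENCODE M21. With 2 libraries a group, replicates are separate samples of which the labels say no more than that they are biological.

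Each comparison was repeated with DESeq2 1.42.0, with RLE scaling, without the filter, with a replicate block, on all 16 libraries or those compared only, with other control times, and without each library in turn, in which case the remaining sample of that group takes its spread from the rest.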

Additional observations from a re-analysis of the deposited data

How the results depend on the processing

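Over the alternatives run, 1336 of 1449 values kept their side of the threshold, 52 lost a call, 59 gained one and 2 changed sign with a call on one side. Among all 130 pairs of a gene and a comparison, most of them not called, 45 had a sign that differed in some alternative. Those 2 sign changes with a call were Cux2 in tumours against WT with 9-day controls only (log2 −1.19) and Cux2 for the agonist in WT with the 9-day WT livers as controls (log2 −7.33, edgeR adjusted p = 0.039), the latter giving a count of 1 member called. Counts of members in this section come without the share of all genes called under the same setting. They therefore do not show whether a setting moved the 10 genes more than other genes. Without a filter on low counts the members called were 4 in Arid1a KO against WT at 9 days, 2 at 30 days, 10 in Arid1a/b DKO against WT, 1 for the agonist in WT, 7 for the agonist in Arid1a KO, 4 for the agonist by genotype interaction, 5 for time in WT, 4 for time in Arid1a KO and 2 for genotype by time; the cause was not tested. DESeq2 called 5 for the agonist in Arid1a KO, 2 for its interaction with genotype, 2 for time in WT and 3 for time in Arid1a KO. A fit of only the libraries compared called 0 for the agonist in Arid1a KO. Leaving out 1 library gave 3 to 4 in Arid1a/b DKO against Arid1a KO, 0 to 2 for the agonist in Arid1a KO, 0 to 4 in Arid1a KO against WT under agonist and 0 to 1 for time in WT. The labels do not say that replicate numbers pair animals, and same-numbered deviations from the group means correlated between −0.106 and 0.356 over the pairs of groups. Every pair among the 30-day liver groups was positive, at 0.168 to 0.356, so replicate number went with a shared difference there that the main fit does not model. With a replicate block 6 members were called in Arid1a/b DKO against WT, 4 for the agonist in Arid1a KO and 5 in each tumour comparison, where Cux2 was lost, and the other counts did not move. Depth limits Hsd3b5 in Arid1a/b DKO, which rests on 1 and 4 counts.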
